A study of Mus musculus with 4 samples.

Results

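CD molecules are surface proteins of leukocytes, numbered by the clusters of antibodies that recognise them, and many are used as markers of a lineage. The genes described here are all symbols in the tag tables that are made of Cd, digits and at most 2 letters, without 12 that were left out by name (Cd2, Cd9, Cd36, Cd37, Cd44, Cd53, Cd63, Cd68, Cd74, Cd81, Cd82 and Cd151). They came to 39 of 11754 symbols and 113 of 30627 tags, and 22 of the 39 genes and 67 of the 113 tags had a count in at least 1 library. Cd2ap met the naming rule although it encodes an intracellular adaptor protein.

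Serial analysis of gene expression (SAGE) was run on RNA of alveolar macrophages, which live in the air spaces and clear inhaled particles, from BALB/c mice described as wild type. One group of mice had received BNL, a hepatocellular carcinoma line of the mouse, by vein 21 days earlier and carried lung metastases, and the other was untreated, had no metastases and is not described as sham-injected. Each group had 2 libraries, and no age is stated for the mice. Whether both libraries of a group stem from different animals or pools is not stated either, so a p-value here reflects the spread between libraries, and that spread may be technical.

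The libraries held 1630776 to 1783814 tag counts on day 21 and 1962569 to 2198563 in untreated mice. No library holds a count of 1 for any tag, so a 0 can stand for a tag read once. Of the 16 alveolar macrophage markers checked, 15 had counts, but Fabp4 was at 0 in every library and Marco had 2 counts in all. Their summed level was 1708 and 3829 CPM (tag counts relative to the TMM-scaled library size) in day 21 metastasis replicates 1 and 2, against 1227 and 2932 CPM in the untreated ones. Chi3l3 led that sum, with 1041 and 2758 CPM on day 21, against 328 and 1186 CPM in untreated mice. The median log2 change of the 13 tested was -0.52, and 0 passed at an adjusted p under 0.05. At an unadjusted p under 0.05, 1 was higher (Chi3l3) and 3 lower, where 3.52% of all symbols were higher and 2.11% lower. Of 11 markers of monocyte-derived and interstitial macrophages analysed, 10 had counts, Itgam was at 0, and 5 of the 7 tested rose at an adjusted p under 0.05 (Apoe, C1qb, C1qc, Ms4a7 and Trem2), where 0.671% of all 2979 symbols did. That list summed to 2179 and 3302 CPM on day 21, against 57.1 and 129 CPM in untreated mice. The 7 lung epithelium markers analysed summed to 34.6 and 26.9 CPM on day 21, against 138 and 222 CPM in untreated mice. Foxj1, Krt18, Krt8 and Sftpa1 were at 0 in every library, so that sum was nearly all Tppp3 and Epcam. Of the 2 tested, 1 fell (Tppp3), where 0.0671% of all symbols did. Of 6 platelet markers analysed, 5 were at 0 in every library and Pf4 rose, with 35 and 37 counts on day 21, against 0 and 4 in untreated mice. The part of other cell types in the levels of the CD molecules was not tested. In bulk RNA, fewer cells of a type and less RNA per cell cannot be told apart.

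Several of these proteins set how readily a macrophage responds or engulfs. CD14 helps Toll-like receptor 4 to sense lipopolysaccharide, and CD47 on a cell signals through SIRPα on the macrophage to hold back engulfment. Inhibitory receptors such as CD300a carry tyrosine motifs in their tails that recruit phosphatases. CD3 and CD79 chains form the signalling parts of the T cell and B cell antigen receptors and serve as markers of those lineages.

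The tags below were chosen because they carry most of the counts of the genes discussed, because they show how alike tags of the Cd300 family are, or because they are the lone evidence for a lymphocyte marker. Each is written 5′ to 3′ in the sense of the transcript, with CATG, the NlaIII site that anchors it, in capitals.
Cd164: CATGtgactccttgccccatataaa
Cd33: CATGggagggaagcctcaggagtac
Cd47: CATGgtgggaaactacacttgcgaa
Cd302: CATGccccacgcagcgctgtcctcg
Cd300lf: CATGgcggtggtgacagtggcggtg
Cd300a, exon 3: CATGactattcccagggcttgaggc
Cd300a, exon 2: CATGtgtgcggtggatatatcactt
Cd300c, exon 2: CATGtgtatggtggatataggattc
Cd22: CATGtgatggaggggaagaaggcca
Cd27: CATGctggggaccttggtaggactc

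The tags were placed by their match to GENCODE M21 transcripts (GRCm38). The Cd164 tag lay in the 3′ UTR at chr10:41530602-41530626 on the plus strand, in exon 6 of 6 and at its last NlaIII site. The Cd33 tag lay in the coding sequence of exon 7 of 7, at chr7:43528874-43528898 on the minus strand. The Cd47 tag was in the coding sequence of exon 2 of 10 (chr16:49868033-49868057, plus strand), and the Cd302 tag ran over the start codon in exon 1 of 5 (chr2:60284097-60284121, minus strand). The main Cd300lf tag was in the coding sequence of exon 4 of 7 at chr11:115120393-115120417 on the minus strand. The main Cd300a tag crossed the junction from exon 3 of 7 into the next exon and spans chr11:114894756-114897723 on the plus strand, while its exon 2 tag, at chr11:114893500-114893524, also matches Cd300c2. The Cd300c tag was at chr11:114959628-114959652 on the minus strand and matched that gene alone. The Cd22 tag was in the coding sequence of exon 11 of 16 (chr7:30869708-30869732, minus strand), and the Cd27 tag in that of exon 1 of 6 (chr6:125236839-125236863, minus strand).

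The comparison asked which lineages' surface markers have counts in these macrophage preparations and whether they differ between metastasis-bearing and untreated mice. Genes of myeloid cells or of broad expression held nearly all the counts. Cd164, Cd47, Cd33, Cd302 and Cd300lf had the most. The listed T cell and B cell genes had 0 counts on day 21, against 2 (T cell) and 3 (B cell) in untreated mice. Counts were present in both groups for 18 genes, on day 21 alone for 1 (Cd109) and in untreated mice alone for 3 (Cd209c, Cd22 and Cd27). Of the 22 genes, 11 had counts in all 4 libraries, and these same 11 had enough counts to be tested.

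No CD molecule passed edgeR's quasi-likelihood test at a Benjamini-Hochberg adjusted p under 0.05, with 0 of 11 higher and 0 of 11 lower on day 21, where 0.671% of all 2979 symbols tested were higher and 0.0671% lower. DESeq2 and limma-voom also called 0 of the 11. At an unadjusted p under 0.05, 2 were higher (Cd300a and Cd300lf) and 0 lower, where 3.52% of all symbols were higher and 2.11% lower. The median log2 change of the 11 was 0.07, with a range of -1.24 to 2.06, against -0.07 for all symbols, whose 5th and 95th percentiles were -1.32 and 1.25. With total counts alone as the scale the median of all symbols was -0.29, and changes given here are relative to TMM scaling. Day 21 lay above untreated in every library for 1 of the 11 (Cd300a), where 15.2% of all symbols did, and below for 2 (Cd164 and Cd99), where 16.0% did. Counting both directions, groups were apart for 31.2% of all symbols. In 9 of 11 genes at least 1 pair of replicates lay further apart than the groups did, and in 9 of 11 the 95% interval of the log2 change held 0.

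**Figure D1:**
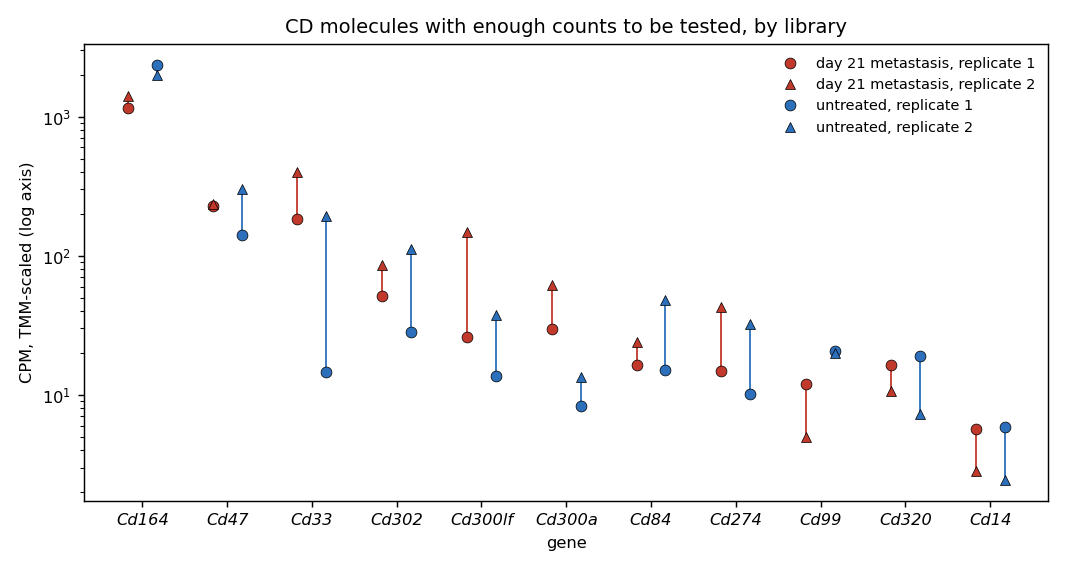
Level of each of the 11 CD molecules with enough counts to be tested, in CPM on a log axis, with day 21 metastasis (red) left of untreated (blue), circles for replicate 1 and triangles for replicate 2, and lines joining the libraries of a group. Cd164 stands highest at 1160.2 to 2361 CPM, Cd33 spans the widest range among untreated libraries, and the groups are apart for Cd300a, Cd164 and Cd99.

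The Cd300 family, a cluster of immunoglobulin-like receptors on myeloid cells that recognise lipids of dying cells, had counts for all 4 of its listed members. Their tags lay within chr11:114893301-115133934. Cd300a, an inhibitory receptor that binds phosphatidylserine and phosphatidylethanolamine, had 52 and 87 counts in day 21 metastasis replicates 1 and 2, against 17 and 33 counts in the untreated ones. Scaled, this was 29.5 and 61.6 CPM on day 21, against 8.30 and 13.4 CPM in untreated mice. Both day 21 libraries lay above both untreated libraries, and means were 45.6 ± 22.7 CPM on day 21, against 10.8 ± 3.61 CPM in untreated mice (SD, n = 2 each). The log2 change was 2.06 ± 0.74 (SE; 95% interval 0.54 to 3.57), and edgeR's quasi-likelihood test gave a Benjamini-Hochberg adjusted p of 0.445. With 1 library left out, that change ran from 1.47 to 2.55, lowest without day 21 metastasis replicate 2.

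Cd300lf, an inhibitory receptor that also binds phosphatidylserine, was at 26.1 and 149 CPM in day 21 metastasis replicates 1 and 2, against 13.7 and 37.4 CPM in the untreated ones. Replicate 1 of day 21 lay between the untreated libraries, so the groups overlapped, and the day 21 libraries stood 5.72-fold apart. Its log2 change was 1.77 ± 0.77 (SE; 95% interval 0.19 to 3.35; edgeR's quasi-likelihood test, adjusted p = 0.739). Without day 21 metastasis replicate 2 the log2 change was 0.06, without day 21 metastasis replicate 1 it was 2.60, and without untreated replicates 1 and 2 it was 1.23 and 2.70. Cd300c and Cd300lb, which are activating members, had 2 and 0 counts and 3 and 0 counts on day 21, against 2 and 0 counts and 0 and 5 counts in untreated mice. These counts were too few for a test, and the ratios of day 21 to untreated were 1.42 for Cd300c (exact counting interval 0.103 to 19.6) and 0.853 for Cd300lb (0.132 to 4.38).

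The tags of the family differed in weight. The exon 3 tag of Cd300a held 34 and 72 counts on day 21, against 10 and 20 in untreated mice, and it matches Cd300a alone. The exon 2 tag, which also matches Cd300c2, held 9 and 7 counts on day 21, against 4 and 8 in untreated mice, and the 3′ UTR tag of exon 7 held 9 and 8, against 3 and 3. The groups were apart on the exon 3 and exon 7 tags. On the shared tag they overlapped in counts but not in CPM, with 5.11 and 4.95 CPM on day 21, against 1.95 and 3.25 CPM in untreated mice. Restricted to tags of 1 gene, the log2 change of Cd300a was 2.26. For Cd300lf the exon 4 tag held 27 and 135 counts on day 21, against 11 and 45 in untreated mice, and the 3′ UTR tag of exon 7 held 9 and 23, against 13 and 22. The exon 4 tag made up 58.7% and 64.0% of Cd300lf counts on day 21 (exact Clopper-Pearson 95% intervals 43.2% to 73.0% and 57.1% to 70.5%), against 39.3% and 48.9% in untreated mice (21.5% to 59.4% and 38.3% to 59.6%). The intervals of all 4 libraries overlapped, and they cover counting error only.

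**Figure D2:**
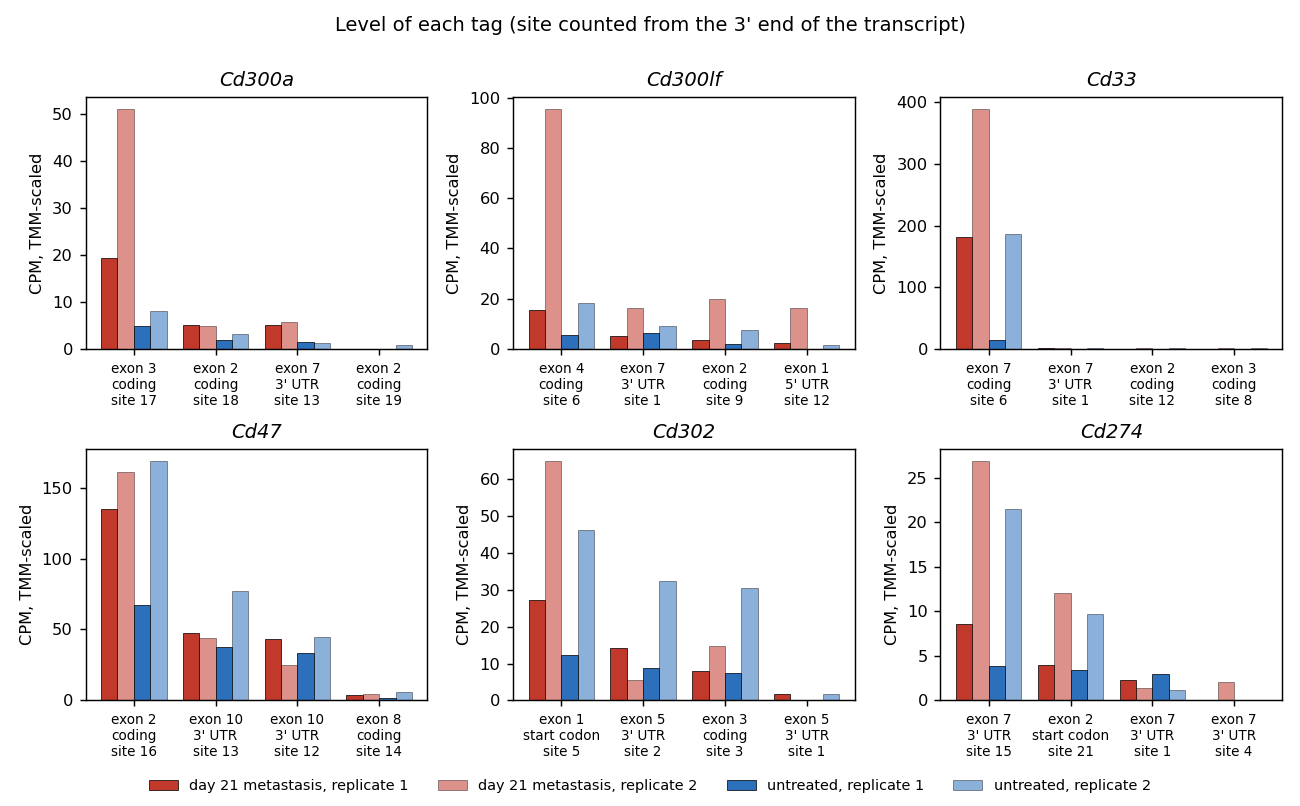
Level of up to 4 tags of 6 CD molecules in CPM, day 21 metastasis (red) left of untreated (blue), with the exon, the region and the NlaIII site counted from the 3′ end under each tag. A single coding tag carries nearly all of Cd33, while Cd47, Cd302 and Cd274 have counts at 3 or more sites, and for Cd300lf the day 21 replicate 2 bar of the exon 4 tag (95.5 CPM) stands above all others.

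Cd33, a sialic acid-binding lectin of myeloid cells, had 325 and 564 counts in day 21 metastasis replicates 1 and 2, against 30 and 472 counts in the untreated ones. This was 185 and 399 CPM on day 21, against 14.6 and 192 CPM in untreated mice. Untreated replicate 1 stood 13.1-fold below untreated replicate 2, which lay just above the lower day 21 library. Means were 292 ± 152 CPM on day 21, against 103 ± 125 CPM for untreated mice (SD, n = 2 each), and the log2 change of 1.50 ± 0.79 (SE; 95% interval -0.12 to 3.11) did not pass edgeR's quasi-likelihood test (adjusted p = 0.955). Without untreated replicate 2 the log2 change was 4.34 and the gene passed as higher (adjusted p = 0.000671 in edgeR's quasi-likelihood test), with 1.97% of all 3206 symbols then called higher. Without untreated replicate 1 it was 0.61, and without day 21 metastasis replicates 1 and 2 it was 2.01 and 0.87. Over all settings tried, the adjusted p of Cd33 ran from 0.000671 to 1. The exon 7 tag held 97.8% of its counts, with 320 and 550 on day 21, against 30 and 460 in untreated mice, so the low value of untreated replicate 1 rests on the same tag as the other values.

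Beside these receptors, the summed markers of other myeloid cells also stood apart between libraries. Monocyte-derived and interstitial macrophage markers were higher in both day 21 libraries, as given above. The 9 neutrophil markers analysed, mostly Camp and S100a9, summed to 75.5 and 276 CPM on day 21, against 10.7 and 157 CPM in untreated mice, with 6 of the 9 at counts above 0 and Cxcr2, Il1r2 and Mmp9 at 0 in every library. In each group replicate 2 was above replicate 1 on this list, as it was for Cd33, Cd300a and Cd300lf. The same order held for both macrophage lists given above and for 7 of the 11 tested CD molecules. What this order stems from was not tested. The lung epithelium list had the reverse order on day 21. The part of other myeloid cells in the levels of Cd33, Cd300a and Cd300lf was not tested.

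Of the genes that restrain phagocytosis or activation, Cd47 was the better counted. Cd47 was at 229 and 236 CPM in day 21 metastasis replicates 1 and 2, against 142 and 301 CPM in the untreated ones. The day 21 values lay between the untreated values, and the log2 change was 0.07 ± 0.61 (SE; 95% interval -1.18 to 1.33; edgeR's quasi-likelihood test, adjusted p = 0.998). With total counts alone as the scale its sign turned (-0.17). Its exon 2 tag held 57.6% of the counts, while tags in the 3′ UTR of exon 10 held 23.3% and 16.3%. Cd24a, a small glycosylphosphatidylinositol-anchored sialoglycoprotein that binds the inhibitory lectin Siglec-G in mice, had 0 and 6 counts on day 21, against 4 and 27 in untreated mice. Most of its counts came from untreated replicate 2, and the ratio of day 21 to untreated was 0.275 (exact counting interval 0.0938 to 0.669). That interval covers counting error only, not the spread between libraries, and takes each listed 0 as no reads.

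Among proteins of pathogen recognition and scavenging, Cd302, a C-type lectin of macrophages and dendritic cells, had the most counts. It was at 51.1 and 85.6 CPM in day 21 metastasis replicates 1 and 2, against 28.3 and 112 CPM in the untreated ones. The day 21 values lay inside the untreated range, whose ends were 3.95-fold apart, and the log2 change was -0.04 ± 0.69 (SE; 95% interval -1.45 to 1.37; edgeR's quasi-likelihood test, adjusted p = 0.998) and 0.01 with upper-quartile scaling. Cd14 had only 10 and 4 counts on day 21, against 12 and 6 in untreated mice. Replicate 1 was the higher in both groups, and the log2 change of 0.07 ± 0.99 (SE) had a 95% interval of -1.97 to 2.11 and was -0.12 with total counts alone. The 1 tag listed for Cd14 runs over its start codon, which is also the last NlaIII site of that transcript. Cd93, a C-type lectin-like receptor of myeloid and endothelial cells, had 8 and 5 counts on day 21, against 0 and 2 in untreated mice. Both day 21 libraries stood above both untreated ones, with a ratio of 9.24 (exact counting interval 2.09 to 84.3). That interval covers counting error only and takes each listed 0 as no reads, and the counts were too few for a test. How many of all symbols below the filter had groups apart was not computed. The 5 counts of day 21 metastasis replicate 2 lay under the floor for the 3 listed tags of Cd93 (6.43 counts a library, defined below). The 6 endothelial markers analysed were at 0 in every library. Cd163, the haemoglobin scavenger receptor, was at 0 in all 4 libraries, with 1 listed tag that is not at the last site.

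Of the ligands that antigen-presenting cells show to T cells, Cd274, which encodes the inhibitory ligand PD-L1, was at 14.8 and 42.5 CPM in day 21 metastasis replicates 1 and 2, against 10.2 and 32.5 CPM in the untreated ones. Replicate 2 stood above replicate 1 in both groups, by 2.88-fold on day 21 and by 3.17-fold in untreated mice, and the groups overlapped. The log2 change was 0.41 ± 0.76 (SE; 95% interval -1.15 to 1.97; edgeR's quasi-likelihood test, adjusted p = 0.998). Cd83, a marker of activated antigen-presenting cells, had 4 and 6 counts on day 21, against 2 and 0 in untreated mice. Day 21 was above untreated in every library, at a ratio of 7.11 (exact counting interval 1.51 to 66.7). That interval covers counting error only and takes each listed 0 as no reads, and the counts were too few for a test. The share of all symbols below the filter with groups apart was not computed. The 4 counts of day 21 metastasis replicate 1 lay under the floor of 4.74 counts a library for the 1 listed tag of Cd83. Cd276, the ligand B7-H3, was at 0 in all libraries, and so were the 4 dendritic cell markers analysed.

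The SLAM family, receptors that mostly bind their own kind on neighbouring leukocytes, was represented by Cd84 and Cd48, whose tags lay within chr1:171699476-171890678. Cd84 was at 16.5 and 24.1 CPM in day 21 metastasis replicates 1 and 2, against 15.1 and 47.9 CPM in the untreated ones. Untreated replicate 2 was the highest and the groups overlapped, with a log2 change of -0.64 ± 0.73 (SE; 95% interval -2.15 to 0.87; edgeR's quasi-likelihood test, adjusted p = 0.998). Cd48, a ligand of CD2 and CD244, had 3 and 0 counts on day 21, against 0 and 17 in untreated mice. Its counts thus came mainly from untreated replicate 2, which gave a ratio of 0.251 (exact counting interval 0.0471 to 0.867). That interval covers counting error only and takes each listed 0 as no reads.

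**Figure D3:**
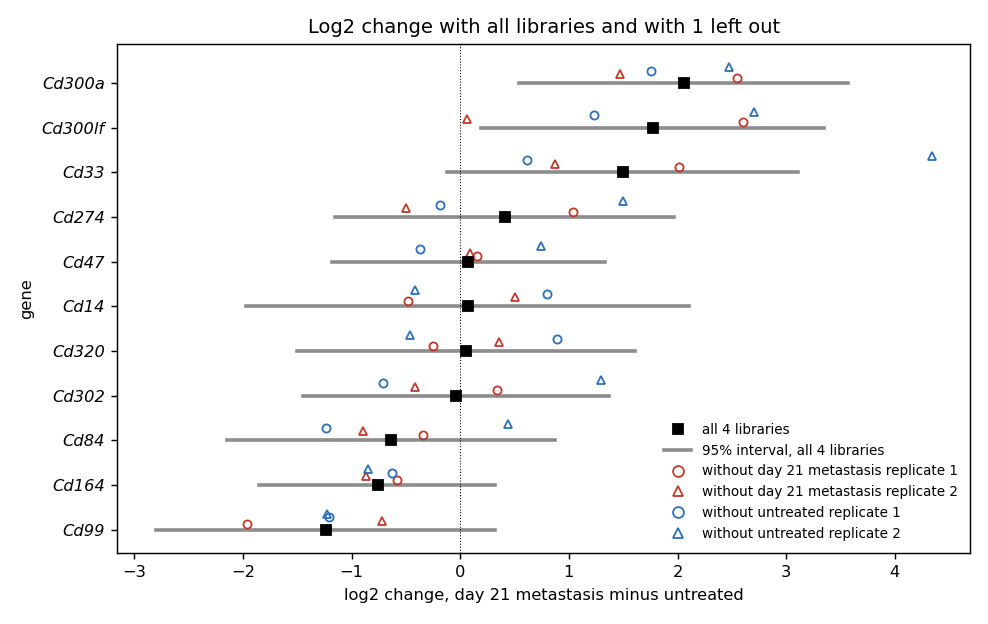
Log2 change, day 21 metastasis minus untreated, of the 11 tested CD molecules, with all 4 libraries (black square, grey 95% interval) and with each library left out in turn (red without a day 21 library, blue without an untreated one). Cd300a, Cd300lf, Cd33, Cd164 and Cd99 keep their sign in every case, Cd300lf is at 0.06 without day 21 replicate 2, and Cd33 reaches 4.34 without untreated replicate 2.

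Among adhesion proteins and sialomucins, Cd164 (endolyn), a sialomucin of lysosomes and the cell surface, took more counts than all other CD molecules together. It had 2043 and 1986 counts in day 21 metastasis replicates 1 and 2, against 4837 and 4894 counts in the untreated ones. Scaled, this was 1160.2 and 1406 CPM on day 21, against 2361 and 1988 CPM in untreated mice. Both day 21 libraries lay below both untreated ones, with means of 1283 ± 174 CPM on day 21, against 2174 ± 264 CPM for untreated mice (SD, n = 2 each). The log2 change was -0.76 ± 0.53 (SE; 95% interval -1.85 to 0.32) and did not pass edgeR's quasi-likelihood test (adjusted p = 0.998), and with 1 library left out it ran from -0.87 to -0.58. The last-site tag held 99.1% of its counts.

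Cd99, a small adhesion protein used by leukocytes to cross endothelium, was at 11.9 and 4.95 CPM on day 21, against 20.5 and 19.9 CPM in untreated mice. The groups did not overlap, and the log2 change of -1.24 ± 0.76 (SE; 95% interval -2.80 to 0.32; edgeR's quasi-likelihood test, adjusted p = 0.998) came to -1.96 with day 21 metastasis replicate 1 left out and to -0.72 with replicate 2 left out. Its 3 tags matched no GENCODE M21 transcript, so its name rests on the deposited symbol. Cd97, an adhesion G protein-coupled receptor that binds CD55 and is now named Adgre5, had 8 and 3 counts on day 21, against 2 and 0 in untreated mice, a ratio of 7.82 (exact counting interval 1.71 to 72.6). Every day 21 library was above every untreated one at these low counts, too few for a test. The interval covers counting error only and takes each listed 0 as no reads. No share of all symbols below the filter with groups apart was computed. The 3 counts of day 21 metastasis replicate 2 lay under the floor of 6.43 counts a library for the 3 listed tags of Cd97. Cd109, a glycosylphosphatidylinositol-anchored protein that binds transforming growth factor beta, had 5 and 0 counts on day 21, against 0 and 0 in untreated mice, where the floor for its 2 listed tags is 5.69 counts a library. Its counts thus lay under that floor, and no fold is given.

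The CD molecules together took 0.174% and 0.211% of all counts in day 21 metastasis replicates 1 and 2 (exact Clopper-Pearson 95% intervals 0.168% to 0.180% and 0.204% to 0.218%), against 0.276% and 0.311% in the untreated ones (0.269% to 0.283% and 0.304% to 0.318%). These intervals cover counting error only, and libraries of a group differed beyond it. A share of all counts also depends on how much other genes take. Ctsd alone took 36.4% and 35.5% of the counts in day 21 metastasis replicates 1 and 2, against 24.9% and 22.4% in the untreated ones. Its part in the lower share of the CD molecules was not tested. Summed, the CD molecules were at 2101 ± 475 CPM on day 21, against 2709 ± 94.0 CPM for untreated mice (SD, n = 2 each). Cd164 made up 65.7% and 57.7% of these counts on day 21, against 89.3% and 71.6% in untreated mice. Without Cd164 the sum was 605 and 1031 CPM on day 21, against 282 and 788 CPM in untreated mice, so the order of the means was the other way round and the groups overlapped.

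Cd320, the receptor that takes up vitamin B12 bound to transcobalamin, was at 16.5 and 10.6 CPM in day 21 metastasis replicates 1 and 2, against 19.0 and 7.31 CPM in the untreated ones. Replicate 1 was the higher in both groups, and the log2 change was 0.05 ± 0.75 (SE; 95% interval -1.50 to 1.61; edgeR's quasi-likelihood test, adjusted p = 0.998) and -0.13 with total counts alone. Replicate 2 was above replicate 1 in both groups for 7 of the 11 tested genes, among them Cd33, Cd302, Cd274, Cd84 and both tested Cd300 genes. Cd38, an ectoenzyme that splits NAD, and Cd101, an inhibitory immunoglobulin-like protein, were at 0 in every library.

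Markers of lymphocytes had hardly any counts. Of the T cell genes, Cd3d, a chain of the T cell receptor complex, and Cd7 were at 0 in all 4 libraries, and Cd27, a co-stimulatory receptor of T and B cells, had 0 and 0 counts on day 21, against 0 and 2 in untreated mice. Of the B cell genes, Cd79a and Cd79b, the signalling chains of the B cell receptor, were at 0 in all 4 libraries. Cd22, an inhibitory lectin of B cells, had 0 and 0 counts on day 21, against 0 and 3 in untreated mice. Both lone counts thus fell in untreated replicate 2, the deepest library, and both are under the floor for their listed tags.

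How much a 0 says depends on the tags. With 1 listed tag, 4.74 counts a library would still be listed at 0 with a probability of 5%, which is 1.93 to 3.36 CPM over the 4 libraries, and with 2 tags the limit is 2.31 to 4.03 CPM. Cd7, Cd79b and Cd27 have a listed tag at a transcript's last NlaIII site, where this assay reads by design, while the single tags of Cd3d and Cd79a lie elsewhere. Of the other lymphocyte markers chosen, only 3 of 13 for T cells, 2 of 12 for B cells and 4 of 11 for NK cells were listed symbols. These were at 0 in every library. The alveolar macrophage marker Fabp4 was at 0 in every library as well, so a 0 does not show that a cell type is absent. RNA of these genes below the limits given could be listed at 0 at this depth.

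**Figure D4:**
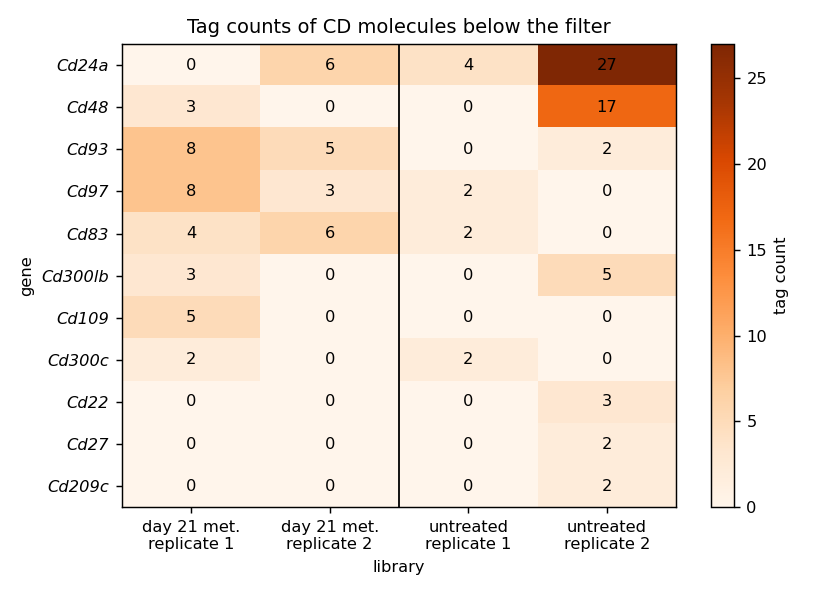
Tag counts of the 11 CD molecules with counts too low for a test, with day 21 metastasis left of untreated and darker cells for higher counts. Cd93, Cd97 and Cd83 have higher counts in both day 21 libraries. How many of all symbols below the filter do so was not computed. Cd24a and Cd48 are highest in untreated replicate 2 with 27 and 17 counts, and the lymphocyte genes Cd22 and Cd27 have counts in that library alone.

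The remaining genes at 0 in all 4 libraries belong to other lineages and functions. They include the 3 complement regulators listed, Cd55, Cd59a and Cd59b, the neutrophil protein Cd177, the stem cell and endothelial marker Cd34, the pericyte and fibroblast protein Cd248, the lectin Cd209d, and Cd2ap. In all 17 genes were at 0 throughout, of which 11 have a listed tag at the last site of a transcript and 6 (Cd101, Cd163, Cd177, Cd38, Cd3d and Cd79a) do not. Cd209c, a C-type lectin, had 0 and 0 counts on day 21, against 0 and 2 in untreated mice, on a tag that matches 6 genes, so its name is uncertain.

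The position of the tags bears on what is counted. Of the 22 leading tags, 9 were in a 3′ UTR, 8 in coding sequence, 3 over a start codon and 1 in a 5′ UTR, and 1 was unmatched. Of the 67 tags with counts, 62 matched 1 gene and 21 were at the last site of a transcript. Last-site tags held 72.2% and 65.0% of the counts of the CD molecules in day 21 metastasis replicates 1 and 2, against 92.2% and 76.6% in the untreated ones. Without Cd164 the shares were 20.0% and 18.8% on day 21, against 33.0% and 20.6% in untreated mice. Most counts of the other CD molecules thus came from sites upstream of the last one, which limits comparison of levels between genes.

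CD antigens whose gene symbols do not begin with Cd were counted more fully. Of 48 such genes analysed, 40 had counts and 30 were tested, of which 1 rose and 0 fell, where 0.671% of all symbols rose and 0.0671% fell. An unadjusted p under 0.05 was reached by 3 with higher and 1 with lower values on day 21, where 3.52% of all symbols were higher and 2.11% lower. The gene that rose was Fcgr2b (CD32), the inhibitory Fc receptor for IgG, with 38 and 40 counts on day 21, against 0 and 0 in untreated mice (edgeR's quasi-likelihood test, adjusted p = 0.000626). Clec7a (CD369), the beta-glucan receptor dectin-1, had 9 and 13 counts on day 21, against 54 and 121 in untreated mice, and a log2 change of -2.40 ± 0.77 (SE; adjusted p = 0.251). Csf1r (CD115), the receptor for macrophage colony-stimulating factor, was at 34.1 and 58.0 CPM on day 21, against 7.32 and 17.9 CPM in untreated mice (log2 change 1.86 ± 0.73 SE; adjusted p = 0.626). Fcgr4, an activating Fc receptor for IgG, was at 11.9 and 43.9 CPM on day 21, against 4.88 and 7.72 CPM in untreated mice (log2 change 2.12 ± 0.80 SE; adjusted p = 0.529). The groups did not overlap for these 4 genes. They were named for having the smallest p of the list, so this cannot be set against the 31.2% of all symbols with groups apart.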

How the data were processed

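Each library is a SAGE library of 21-base tags next to an NlaIII site. The deposited values are raw tag counts each tag with its symbol and RefSeq accession, per the file headers, and mm9 is the build per the submitters' processing notes. The tool that matched the tags is not given in the sources used here. Tags with a count of 1 are absent from the deposited counts. PCR copies were not told apart, so the error of intervals and floors is that of counting alone.

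Counts were summed per deposited symbol. Of 7236 symbols with counts, 2979 passed filterByExpr (minimum count 10, minimum total 15) and were tested with edgeR 4.0.16 (R 4.3.3; quasi-likelihood test, TMM factors 0.866 to 1.12, group as the only term, Benjamini-Hochberg adjustment over all of them, threshold 0.05). The fit had 2 residual degrees of freedom and a biological coefficient of variation of 0.482. DESeq2 1.42.0, limma-voom (limma 3.58.1), other scalings, no filter, a replicate block, current gene names, tags of 1 gene and leaving out each library were alternatives. Within a group, libraries differed beyond counting noise (chi-square over its degrees of freedom 51.4 on day 21 and 80.2 for untreated), so each counted as 1 replicate. Standard errors are log2 changes over the square root of F. Ratios of genes below the filter use TMM-scaled counts with exact intervals (scipy 1.17.1). They take each listed 0 as no reads, although it can stand for a tag read once. Floors are the largest count per library that would leave each listed tag at 0 or 1 reads with a probability of 5%. Tags were searched after CATG on the sense strand of GENCODE M21 transcripts (GRCm38), and a site is counted from the 3′ end of the transcript.

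The genes, role lists and marker lists were chosen with earlier results of these data known. Every CD molecule with a count is named with its counts or CPM, and those at 0 are named, except 1 that is not reported here. From other lists at most 4 genes of smallest p are named, plus those past the threshold, and markers listed at 0 or leading a sum.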

Additional observations from a re-analysis of the deposited data

How the results depend on the processing

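Among 141 recomputed log2 changes of the 11 tested CD molecules, 124 kept their direction and side of the threshold, 16 turned direction, 1 passed it and 0 lost it. The direction of 5 genes (Cd164, Cd300a, Cd300lf, Cd33 and Cd99) held in every setting run. With total counts alone the log2 changes of Cd14, Cd320 and Cd47 were -0.12, -0.13 and -0.17, and Cd302 was at 0.01 with upper-quartile scaling and 0.22 with limma-voom. With 1 library left out, changes ran from -0.48 to 0.80 for Cd14, -0.50 to 1.50 for Cd274, -0.71 to 1.30 for Cd302, -0.46 to 0.89 for Cd320, -0.37 to 0.74 for Cd47 and -1.24 to 0.44 for Cd84. CD molecules called higher numbered 0 to 1 across the libraries left out (Cd33 without untreated replicate 2), and 0 in the other settings. Of all symbols, 20 were higher and 2 lower. The count higher was 9 with total counts alone, 9 with limma-voom, 36 with no filter, 11 with tags of 1 gene and 9 to 63 with 1 library left out. The count lower was 0 with upper-quartile scaling, total counts alone or tags of 1 gene, 5 with DESeq2, 5 with no filter and 0 to 18 with 1 library left out. The cause of these shifts was not tested. The summed level of the CD molecules in untreated mice was 2934 CPM with total counts alone and 2709 CPM with TMM. The labels do not say what a replicate number shares, and the deviations of same-numbered libraries correlated at 0.54. With the replicate block, 28 symbols were higher and 9 lower, 0 CD molecules were called, Cd302 was at 0.21, and the adjusted p of edgeR's quasi-likelihood test was 0.0688 for Cd300a. With a count of at least 5 in place of any count, 14 and 13 CD molecules were detected on day 21, against 11 and 14 in untreated mice. The 2 libraries a group and absent single reads limit what can be seen.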
